A study of Bos grunniens with 6 samples.

Results

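This report concerns yak genes whose transcripts carried many separate m6A peaks, taken as every gene whose identifier occurred in 6 or more rows of the authors' table of peaks compared between both ages. That table listed 16318 peaks on 8809 genes. The rule gave 131 genes (1.49% of the genes) with 980 peaks (6.01% of the peaks). The members were thus chosen by the number of peaks called in the deposited comparison. This is the same table that holds the methylation values, so the methylation of these peaks is described here and was not tested. Testis was collected from 3 healthy male yaks at 6 months of age, before sexual maturity (Y6M), and from 3 at 30 months, after it (Y30M). The polyadenylated RNA of each yak was fragmented and gave 2 libraries, an immunoprecipitate (IP) made with an m6A antibody and an input without it, 12 libraries in all. The tissue was whole testicular parenchyma, in which fewer cells of a type and less RNA per cell cannot be told apart.

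m6A is a methyl group on an internal adenosine of an mRNA, placed by the METTL3 and METTL14 complex, removed by demethylases such as ALKBH5, and bound by reader proteins such as the YTH and IGF2BP families. It is known for marking long internal exons and the region around the stop codon, and for affecting splicing, translation and decay of the transcript. In the testis it is known for its roles in spermatogonial differentiation and meiosis. A peak is a stretch of transcript where IP fragments outnumber input fragments. A gene with a long internal exon can therefore hold several of them.

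Gene names came from the study's supplementary tables and covered 62 of the 131 genes. Those tables list chiefly genes with differential peaks, and 60 of the 62 named genes had such a peak against 23 of the 69 others, so the named genes were no random draw of the group. The remaining 69 are given by identifier. Genome coordinates are on LU_Bosgru_v3.0.

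The number of peaks per gene fell off steeply within the group. There were 56 genes with 6 peaks, 38 with 7, 13 with 8 and 10 with 9, and 14 genes had 10 or more. Just outside the rule lay 173 genes with 5 peaks, and 4632 genes had 1. The 131 genes were spread over 30 chromosomes, with at most 9 on any of them. The peaks of a gene together spanned a median of 65.3 kb (3.149 to 426.3 kb) and covered a median of 3052 bp of exon.

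Many of the genes with the most peaks are known for very large proteins. MACF1, which crosslinks microtubules and actin, held 24 peaks on chromosome 3 between 116231796 and 116416253. PCDHGA4 of the clustered protocadherins, which act in cell adhesion, held 20 on chromosome 8. ENSBGRG00000024977 held 15. KMT2C, a histone H3 lysine 4 methyltransferase, held 13 on chromosome 4, and the transcription factor ZFHX3 held 12 on chromosome 20. The other genes with 11 or 12 peaks that the naming rule picked were ENSBGRG00000009618 and ENSBGRG00000002731 with 12, and the transcriptional corepressor SPEN, ENSBGRG00000021523 and the centrosomal protein CEP350 with 11. Gamma protocadherins are tandem variable exons with shared constant exons, so reads could be divided among them and the values of PCDHGA4 are uncertain.

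The peaks of a gene were separate from each other. In 0 of 3584 pairs of peaks of the same gene did the exon blocks overlap. The gap between neighbouring peaks had a median of 1083 bp, and it was under 1000 bp in 422 of 849 neighbour pairs (49.7%) and at least 10000 bp in 173 (20.4%). A stretch of closely spaced peaks lay in MAP1A, a microtubule-associated protein, where 9 peaks filled 9.558 kb of chromosome 17. TSHZ1, a zinc finger transcription factor, held 7 peaks within 3.149 kb of chromosome 21, and AHDC1, a DNA-binding protein with AT-hook motifs, held 7 within 4.463 kb of chromosome 2.

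A single exon block made up 52.9% of the 980 peaks and 46.4% of the peaks of genes with 1 peak. The summed block length had a median of 301 bp against 294 bp. Fold enrichment over input, which MeTDiff gives for both groups together, had a median of 2.335 and 2.34. The enrichment carries its own false discovery rate (FDR), and this was at most 0.05 for 635 of the 980 peaks (64.8%), against 69.6% of the peaks of genes with 1 peak and 69.0% of all peaks. All peaks passed it in 43 of the 131 genes, some in 67 and none in 21. Among the genes without any such peak were MYO18B, PKDREJ, AHDC1, NIN, CLSPN, BRCA1, MAP1A and CEP350.

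Enrichment was read along the transcript from the 5′-most to the 3′-most peak. The last peak had a median fold enrichment of 2.63, against 2.29 for the first and 2.285 for those between, and 74.0% of last peaks passed the enrichment FDR against 59.5% of first ones. The last peak stood above the median of the other peaks of its gene in 79 of 131 genes, and was the highest in 28. KIF13A, a kinesin that carries vesicles, had its highest enrichment there, 6.41-fold in the last of its 6 peaks. In KMT2C the 5 peaks from the ninth to the last ran at 3.55, 1.51, 2.72, 3.12 and 3.04-fold.

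**Figure D1:**
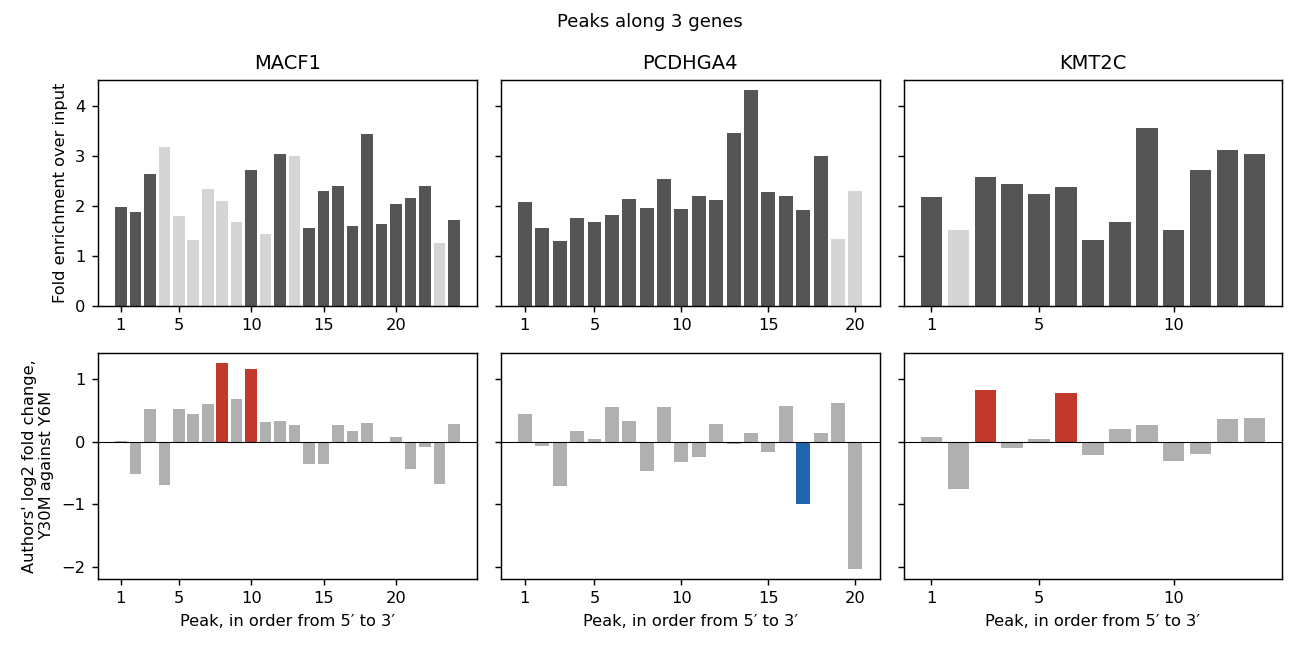
Fold enrichment over input (top; dark bars have an enrichment FDR of at most 0.05) and the authors' log2 fold change of methylation, Y30M against Y6M (bottom; red, hypermethylated DMP; blue, hypomethylated DMP; grey, not a DMP), for each peak of MACF1, PCDHGA4 and KMT2C in order from 5′ to 3′. Bars above and below 0 occur along all 3 genes, and the 24 peaks of MACF1 include 2 DMPs, the 8th and the 10th.

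A methylation shift is the authors' deposited log2 fold change of a peak, Y30M against Y6M, so that a positive shift stands for more methylation in Y30M. It is 1 value per peak over the replicates of both groups and carries no replicate error. A peak is called differentially methylated (DMP) where its deposited p-value does not exceed 0.05 and it differs at least 1.5-fold. The shifts of the 980 peaks had a median of 0.10 and an SD of 0.62, and 566 (57.8%) lay above 0. The same values were 0.11, 0.51 and 60.4% for peaks of genes with 1 peak, and 58.5% of all peaks lay above 0.

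Of the 980 peaks, 151 (15.4%) were DMPs, 105 hypermethylated and 46 hypomethylated in Y30M. Of all 16318 peaks 14.6% were DMPs, 10.2% hypermethylated and 4.34% hypomethylated. At least 1 DMP was present in 83 of the 131 genes: 47 genes had 1, and 36 had 2 or more. Hypermethylated DMPs lay on 58 genes and hypomethylated ones on 35. The first peak, the peaks between and the last peak were hypermethylated DMPs in 9.92, 10.2 and 14.5% of cases.

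Enrichment was also read for the DMPs alone. Of the 151 DMPs, 76 (50.3%) had an enrichment FDR above 0.05, against 37.1% of the DMPs of genes with 1 peak and 32.5% of the peaks in the group that were not DMPs. The largest shifts were set against the same FDR. Of 16 peaks with a shift of at least 4-fold, 11 were DMPs, on 7 genes, and 0 of those 11 passed the enrichment FDR. The other 5 had deposited p-values above 0.05, and 3 of them passed it. These 3 included the largest shift of all, −4.99 in the first peak of PCDHAC2, an alpha protocadherin, and a peak of the transcription factor ZFHX4 at −2.36. Both genes were scarcely expressed. Their means in Y6M and Y30M were 0.63 and 0.98 FPKM for PCDHAC2, and 0.395 and 1.07 FPKM for ZFHX4. Shifts of at least 4-fold also lay on genes with more expression. IQGAP1 had a DMP at −4.79, with means of 20.5 and 15.8 FPKM in Y6M and Y30M. TTC28 had a peak at 3.20 that was not a DMP, with means of 9.32 and 6.29 FPKM.

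**Figure D2:**
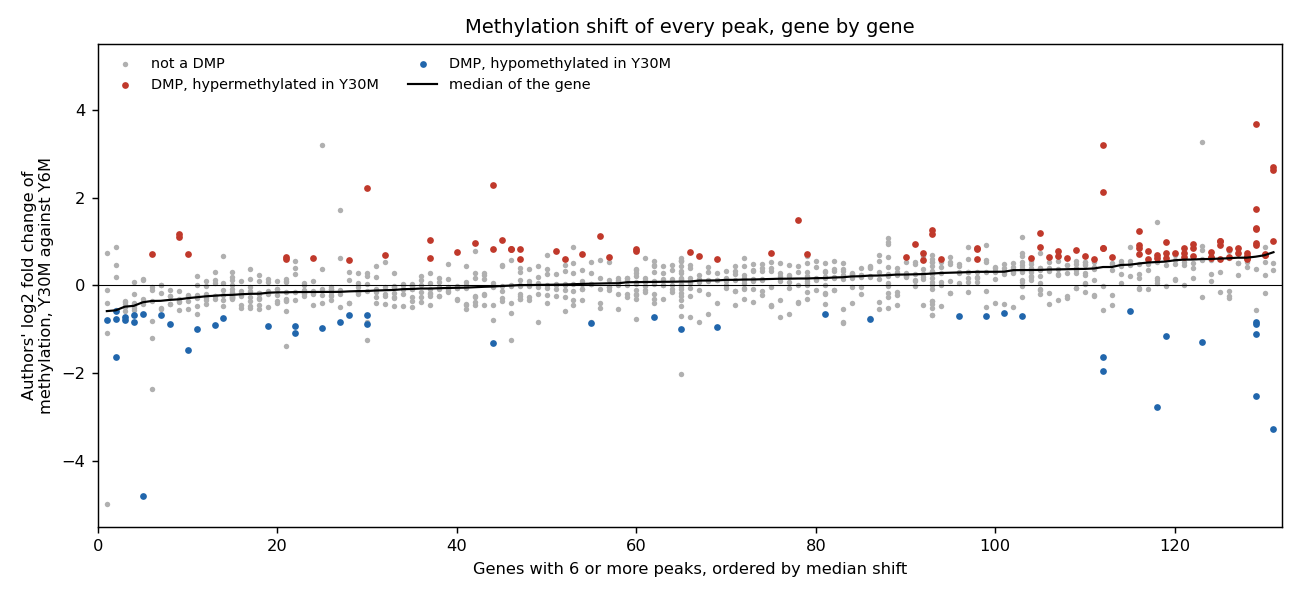
The authors' log2 fold change of methylation, Y30M against Y6M, of all 980 peaks (y axis), with the 131 genes ordered along the x axis by their median shift (black line); red points are hypermethylated DMPs, blue points hypomethylated DMPs and grey points other peaks. Points above and below 0 occur in 118 of the 131 genes, and red points lie on both sides of the order.

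Most of the genes held peaks of both directions. In 118 of 131 genes (90.1%) some peaks shifted above 0 and some below, in 10 all shifted above 0 and in 3 all below. Genes with fewer peaks have fewer chances to differ, and both signs occurred in 42.4% of genes with 2 peaks, 64.6% with 3, 77.0% with 4 and 88.4% with 5. Pairs of peaks remove this dependence on number: 2042 of 3584 pairs (57.0%) shared a sign, where the share of peaks above 0 alone gives 51.2%. The pairs of genes with 2 to 5 peaks shared a sign in 56.5%. Neighbouring peaks did so in 57.6% of 849 pairs and other pairs in 56.8% of 2735. Pairs within a gene share the gene's libraries and reads of input, so they are not independent of each other.

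The spread of shifts within a gene had a median SD of 0.37, against 0.29 in genes with 2 to 5 peaks. It was 0.25 in genes with 2 peaks and 0.37 in those with 5, so it was no wider here than just outside the rule. The distance from the lowest to the highest peak had a median of 1.08 on the log2 scale. It ran from 0.28 to 6.21. The spread was wide where the gene was scarcely expressed at either age. Of the 124 genes in the FPKM table, 15 had a mean under 1 FPKM at the age with the lower value, and their median within-gene SD was 0.85, against 0.35 in the other 109. Of the peaks of those 15 genes 26.9% were DMPs and 48.1% passed the enrichment FDR, against 12.3% and 69.4% in the others. Genes with 1 peak went the same way, with DMPs in 20.9% of 780 low genes and in 12.9% of 3764 others. The part of expression level in these shifts was not tested.

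DMPs in opposite directions were found on 10 of the 36 genes with 2 or more DMPs. The other 26 had DMPs of the same direction, 21 of them hypermethylated and 5 hypomethylated. In genes with 2 to 5 peaks, 54 of 231 genes with 2 or more DMPs (23.4%) had opposed ones, against 27.8% here, and a gene with more DMPs has more room for opposition. With DMPs counted only where the peak passed its own enrichment FDR, a choice made after the data were seen, 1 of the 10 genes remained, ENSBGRG00000017644.

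**Figure D3:**
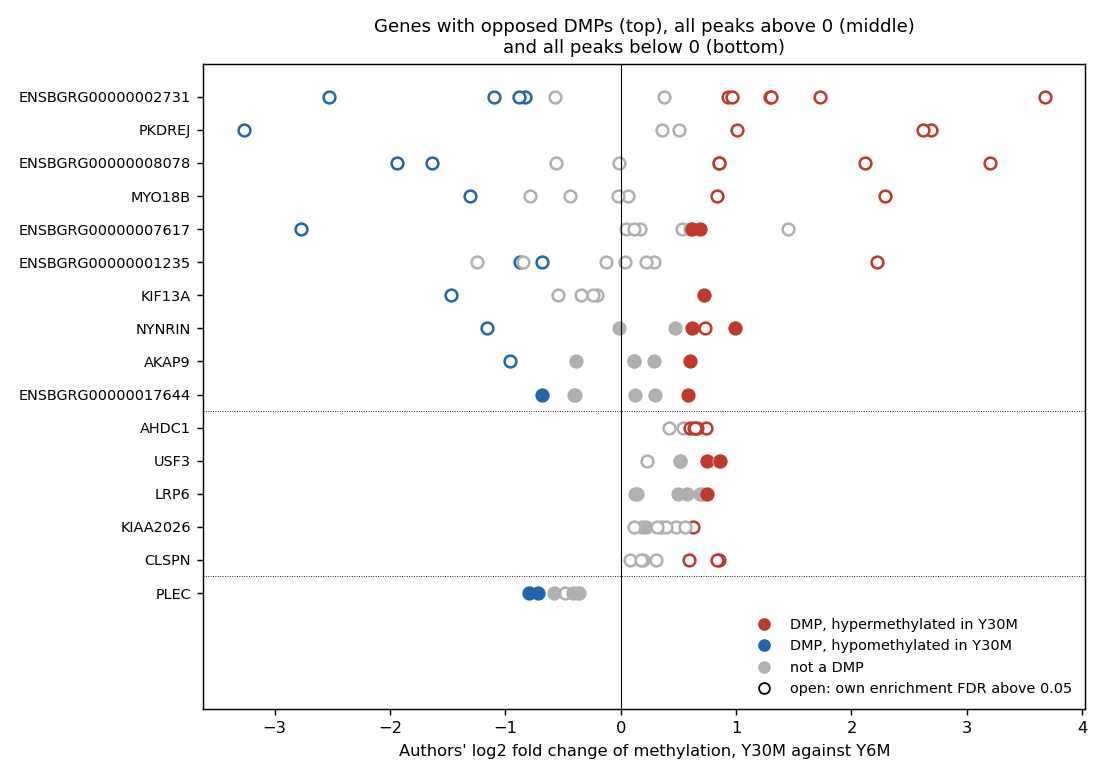
Shift of each peak (x axis, the authors' log2 fold change, Y30M against Y6M) in the 10 genes with opposed DMPs, 5 named genes with all peaks above 0 and 1 with all below; red and blue mark DMPs, grey other peaks, and open symbols peaks whose own enrichment FDR was above 0.05. The widest opposed shifts, from −3.27 to 3.68, are open symbols, whereas 6 of 7 peaks of PLEC are filled.

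The widest opposition lay in ENSBGRG00000002731 on chromosome 2, between 138505277 and 138524433. Of its 12 peaks 6 were hypermethylated and 4 hypomethylated DMPs, and the shifts ran from −2.53 to 3.68. None of its 12 peaks passed the enrichment FDR, and its expression was not analysed here. In ENSBGRG00000008078 on chromosome 9, 4 of 8 peaks were hypermethylated and 2 hypomethylated DMPs, from −1.94 to 3.20. ENSBGRG00000007617 on chromosome 18 had 2 hypermethylated DMPs and 1 hypomethylated among 9 peaks, with shifts from −2.77 to 1.45. The enrichment FDR was passed by 2 of those 9 peaks.

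PKDREJ, a polycystin-family receptor for egg jelly known from the testis and sperm, had 6 peaks on chromosome 5 between 125557770 and 125562964. From 5′ to 3′ their shifts were 0.36, 1.01, 2.69, 2.62, −3.27 and 0.50, so the hypomethylated DMP followed 3 hypermethylated ones directly. Its neighbour ENSBGRG00000001235, 41.41 kb away on the same strand, had 9 peaks with 1 hypermethylated and 2 hypomethylated DMPs. MYO18B, an unconventional myosin, had its opposed DMPs side by side at the 5′ end, at −1.31 and 2.29, within chromosome 16, 72779726 to 72780875. In each of PKDREJ, MYO18B and ENSBGRG00000008078 none of the peaks passed the enrichment FDR.

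In 4 further genes the opposed DMPs lay apart along the transcript. In NYNRIN, a gene with a predicted RNA nuclease domain, the first peak lay at −1.16 and the fourth and the fifth at 0.62 and 0.99, both with an enrichment FDR of at most 0.05. In KIF13A the first 5 peaks lay between −1.47 and −0.21, the second being the hypomethylated DMP, and the last, the only peak of the gene past the enrichment FDR, at 0.72. In ENSBGRG00000017644 on chromosome 26 all 6 peaks passed it, the second at −0.68 and the last at 0.59. In AKAP9, which anchors protein kinase A at the centrosome and Golgi, the first peak was hypermethylated, at 0.60, and the third hypomethylated, at −0.96.

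The genes whose peaks all agreed are given next. All 7 peaks of AHDC1 lay between 0.42 and 0.74, and 5 were hypermethylated DMPs, though none passed the enrichment FDR. All 6 peaks of USF3, a basic helix-loop-helix factor, lay between 0.23 and 0.86, with 2 DMPs, and 5 passed it. LRP6, a Wnt co-receptor, had 7 peaks between 0.12 and 0.745, all past the enrichment FDR, and 1 DMP. KIAA2026 had 9 peaks between 0.12 and 0.62 with 1 DMP, and CLSPN, the checkpoint adaptor claspin, 7 between 0.08 and 0.86 with 3. In the other direction all 7 peaks of PLEC, the cytolinker plectin, lay between −0.80 and −0.36, with 2 hypomethylated DMPs and 6 peaks past the enrichment FDR. PLEC was the only named gene with every peak below 0.

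Several further genes carried DMPs that shared a direction. There were 3 or more DMPs on 16 of the 131 genes. TSHZ1 had 4 hypermethylated DMPs among 7 peaks, at 0.925, 0.59, 1.02 and 1.01, and 1 peak below 0, at −0.16. HIVEP2, a zinc finger transcription factor, had 4 among 9 peaks, up to 1.24, and REV3L, the catalytic subunit of DNA polymerase zeta, 3 among 7. NIN, which anchors microtubules at the centrosome, was the only 1 of the 16 with hypomethylated DMPs alone, at −1.64, −0.77 and −0.59 among 7 peaks.

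The peaks called in Y6M alone gave a separate view of the direction. Of the 980 peaks, 760 (77.6%) overlapped a peak of the Y6M list by at least 1 bp. The overlap was 58.1% for the hypermethylated DMPs, 73.9% for the hypomethylated ones and 80.2% for the rest. In genes with 1 peak these shares were 54.3, 81.9 and 77.6%. The Y30M list was read for chromosomes 1 and 2, which held 86 peaks of 13 of the genes. Of 16 hypermethylated DMPs there, 4 lay in the Y30M list alone and 1 in the Y6M list alone. Of 6 hypomethylated DMPs, 3 lay in the Y30M list alone and 1 in the Y6M list alone, which is against the direction of their shift, and it was 2 and 2 where 50% of each peak had to be shared. Of these 6, 4 lay on ENSBGRG00000002731, where no peak passed the enrichment FDR. Over all genes on those chromosomes 6 hypomethylated DMPs lay in the Y30M list alone and 26 in the Y6M list alone.

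The Y6M list also scores adenosines in its peaks for a predicted methylated site. In the 760 peaks, 2514 of 6669 scored adenosines (37.7%) were predicted sites, which is 6.06 per kb of exon block. In the peaks of genes with 1 peak it was 42.9% and 7.01 per kb. MAP1A had the most predicted sites, 119 of 177 scored.

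Expression was measured as FPKM in the 6 input libraries, fragments scaled to transcript length and sequencing depth, and 124 of the 131 genes were in that table. The other 7, ENSBGRG00000002731 and ENSBGRG00000001235 among them, are not analysed here for expression. The mean over all 6 libraries was between 1 and 100 FPKM in 119 of 124 genes (96.0%), against 88.1% of the 4539 genes with 1 peak. It was below 1 in 3 genes and over 100 in 2. The highest was 161.7 FPKM, against 2868 among genes with 1 peak, a far larger set. In genes with 5 peaks, 97.0% lay between 1 and 100 FPKM and the highest was 163 FPKM.

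The median FPKM of the 124 genes was 8.12, 8.30 and 11.7 in Y6M replicates 1, 2 and 3, against 8.71, 9.06 and 10.1 in genes with 1 peak. In Y30M it was 10.1, 6.65 and 11.4 against 10.7, 7.85 and 10.8. The group stood lower in replicates 1 and 2 and higher in replicate 3 at both ages. On the log2(FPKM + 1) scale the difference of medians, genes with 6 or more peaks minus genes with 1, was −0.01 ± 0.17 (SD, n = 3) in Y6M and −0.07 ± 0.14 in Y30M, so it was smaller than the spread between yaks. Without replicate 3 it was −0.10 in Y6M and −0.14 in Y30M. With only peaks past the enrichment FDR counted, which left 66 genes with 6 or more, the difference turned to 0.328 in Y6M and 0.370 in Y30M. Peaks are called against the same input reads, so peak number and FPKM are not independent of each other.

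**Figure D4:**
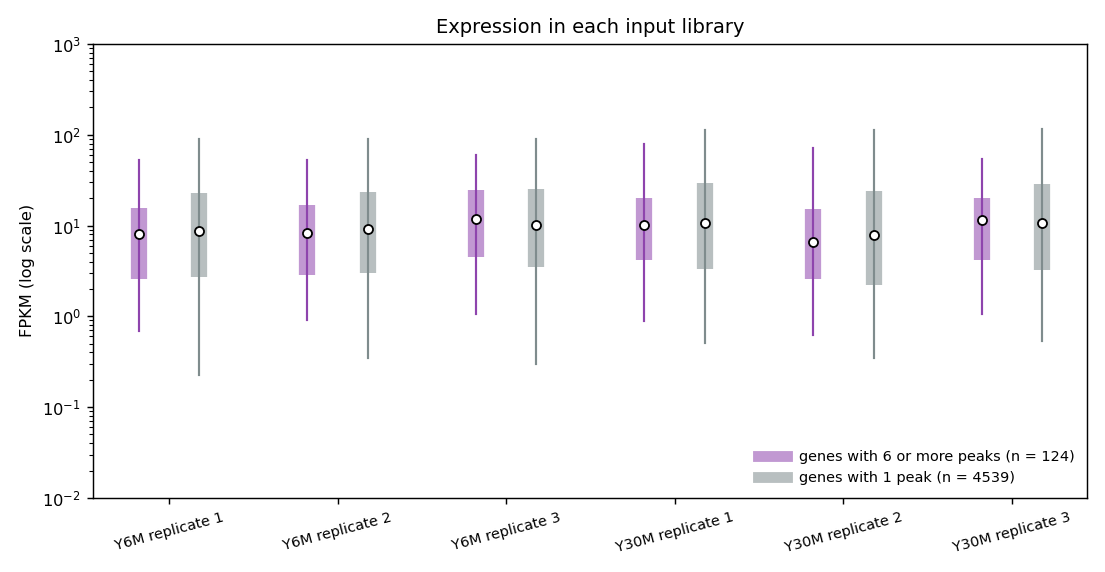
FPKM (log scale) in each of the 6 input libraries for the 124 genes with 6 or more peaks (purple) and the 4539 genes with 1 peak (grey); circles are medians, thick bars the middle 50% of genes and thin lines the 5th to 95th percentile. The medians lie close together, between 6.65 and 11.7 FPKM, and the thin lines of the genes with 6 or more peaks are shorter at both ends.

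Between the ages, 58 of the 124 genes (46.8%) were differentially expressed (DEG), with a limma p-value up to 0.05 and at least a 1.5-fold difference. Over all 19477 genes tested 46.6% were DEGs, and 53.4% of genes with 1 peak. With only genes of a mean of at least 1 FPKM fitted, the shares were 50.4% of 121 genes in the group and 62.2% of all 13912. Of the 58, 26 were higher and 32 lower in Y30M, against 27.6% higher and 19.0% lower over all genes. The 58 included 45 that also had a limma adjusted p of at most 0.05. The median log2 fold change was −0.165 in the 124 genes and 0.04 over all genes. The split depended on the scaling: it was 33 higher and 23 lower with FPKM rescaled to the same sum, and 24 and 38 with a median-of-ratios factor. Over all genes 59.2% of the calls were higher in Y30M, and 65.0% and 54.4% with these scalings, against 44.8, 58.9 and 38.7% in the group. Without Y6M replicate 3 the split was 30 and 22, and without Y30M replicate 2 it was 28 and 23. The 2 groups did not overlap for 69 of the 124 genes (55.6%), against 54.1% over all genes.

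The largest rises among named genes were those of MYO18B, PKDREJ and MAP1A. MYO18B had 0.46, 0.68 and 0.17 FPKM in Y6M and 19.04, 20.0 and 12.2 in Y30M, and PKDREJ 0.16, 0.30 and 0.31 against 15.6, 11.5 and 14.3. Both lay under 1 FPKM in every Y6M yak. The log2 fold change was 3.64 ± 0.32 (SE, n = 3 per group; limma adjusted p = 0.000141) for MYO18B and 3.55 ± 0.27 (limma adjusted p = 7.74e-05) for PKDREJ. Such low levels made the fold change depend on the pseudocount: with 0.1 in place of 1 it was 5.09 for MYO18B and 5.30 for PKDREJ. MAP1A had 7.08, 8.54 and 7.36 FPKM in Y6M and 82.5, 86.0 and 43.3 in Y30M, a log2 fold change of 2.99 ± 0.30 (limma adjusted p = 0.000237). Of its 9 peaks 8 shifted below 0, and 2 were hypomethylated DMPs.

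CLSPN, BRCA1 and CENPF were also among the 8 named genes with the largest rises. CLSPN had 0.93, 1.29 and 2.67 FPKM in Y6M and 9.94, 6.85 and 13.1 in Y30M (log2 fold change 2.07 ± 0.38, limma adjusted p = 0.00370). BRCA1, which acts in homologous recombination, had 1.55, 1.99 and 3.57 against 12.5, 9.48 and 15.1 (2.01 ± 0.34, limma adjusted p = 0.00271). CENPF, a kinetochore protein, had 0.79, 1.89 and 3.89 against 10.3, 4.18 and 12.6 (1.66 ± 0.52, limma adjusted p = 0.0345). Only genes without overlap between the groups were ranked here. The lowest Y30M value of CENPF was close to the highest of Y6M. It lost its call without Y6M replicate 1 (1.31) and without Y30M replicate 1 (1.52).

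Of the 13 genes with 11 or more peaks, 10 were tested. Of these, 4 were DEGs higher in Y30M, CEP350, SPEN, ENSBGRG00000024977 and BSN, where 27.6% of all genes were. CEP350 had 4.38, 5.23 and 9.05 FPKM in Y6M and 19.03, 17.5 and 36.1 in Y30M (log2 fold change 1.78 ± 0.37, limma adjusted p = 0.00706). SPEN had 12.15, 14.9 and 21.2 against 32.3, 40.9 and 35.8 (1.16 ± 0.25, limma adjusted p = 0.00814). ENSBGRG00000024977 had 24.6, 26.1 and 25.6 against 55.25, 55.9 and 53.0 (1.08 ± 0.17, limma adjusted p = 0.00172), with 11 of its 15 peaks below 0 and no DMP. BSN, a scaffold of the presynaptic active zone, had 0.78, 1.12 and 0.96 against 3.92, 3.87 and 2.24 (1.13 ± 0.26, limma adjusted p = 0.0101). MACF1, with the most peaks of all, had 14.3, 15.1 and 16.2 FPKM in Y6M and 17.3, 9.75 and 12.04 in Y30M, and the groups overlapped (−0.24 ± 0.26, limma adjusted p = 0.50). PCDHGA4 had 4.06, 3.73 and 3.67 against 3.20, 2.82 and 2.40, without overlap but with a difference that did not pass the test (−0.34 ± 0.26, limma adjusted p = 0.328).

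Among named genes, TSHZ1, NFIB and AHDC1 had the largest falls. TSHZ1 had 31.2, 23.55 and 23.6 FPKM in Y6M and 6.38, 3.56 and 4.25 in Y30M, a log2 fold change of −2.26 ± 0.28 (limma adjusted p = 0.000609). NFIB, a nuclear factor I transcription factor, had 4.38, 4.72 and 8.32 against 0.91, 0.33 and 1.09 (−1.92 ± 0.33, limma adjusted p = 0.00293). AHDC1 had 29.2, 25.4 and 23.1 against 8.81, 4.52 and 6.00 (−1.89 ± 0.28, limma adjusted p = 0.00141). TSHZ1 and AHDC1 held 4 and 5 hypermethylated DMPs, whereas CLSPN, which rose, held 3.

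UTRN, the dystrophin homologue utrophin, had 8.89, 8.04 and 15.6 FPKM in Y6M and 2.40, 1.63 and 2.58 in Y30M (−1.85 ± 0.34, limma adjusted p = 0.00404). COL6A6, a collagen VI chain, had 3.31, 3.25 and 7.92 against 0.52, 1.28 and 0.21 (−1.76 ± 0.39, limma adjusted p = 0.00909). KIF13A had 12.15, 12.3 and 12.7 against 5.05, 2.93 and 3.67 (−1.48 ± 0.27, limma adjusted p = 0.00409). Being without overlap between the ages was a condition for this ranking too. PTPN13, a tyrosine phosphatase, and NIN, with 3 hypomethylated DMPs, also fell, with log2 fold changes of −1.42 ± 0.33 and −1.375 ± 0.32. With a pseudocount of 0.1 the values were −2.81 for COL6A6 and −2.45 for NIN. LRP6, all of whose peaks shifted above 0, fell from 13.1 ± 1.55 (SD) to 4.62 ± 1.16 FPKM (limma adjusted p = 0.00624).

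**Figure D5:**
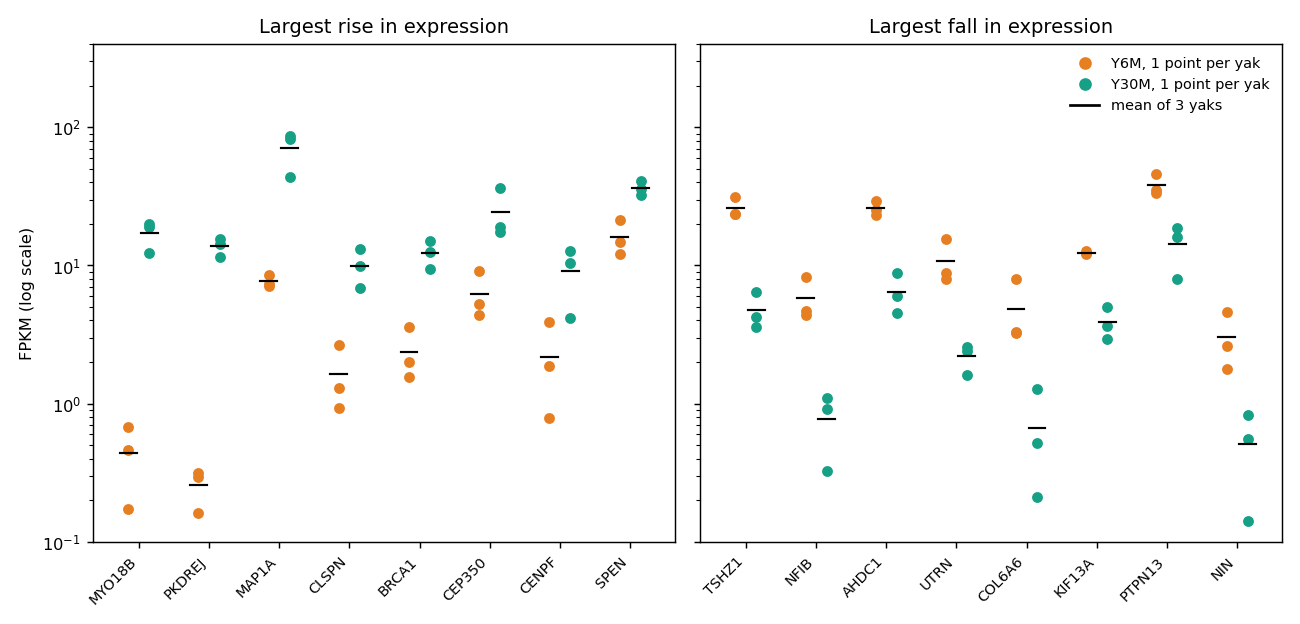
FPKM (log scale) of the 8 named genes with the largest rise (left) and the 8 with the largest fall (right) among those differentially expressed without overlap; each point is the input library of 1 yak, orange for Y6M and green for Y30M, and the black line is the mean of 3 yaks. MYO18B and PKDREJ lie below 1 FPKM in every Y6M yak and above 10 in every Y30M yak.

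Other genes with opposed DMPs were read for expression as well. ENSBGRG00000008078 rose, from 0.04 ± 0.02 (SD) to 5.01 ± 0.88 FPKM (limma adjusted p = 8.83e-05), with a log2 fold change of 2.52 that was 5.16 with a pseudocount of 0.1. NYNRIN and AKAP9 were DEGs lower in Y30M at an unadjusted p only (limma adjusted p = 0.0620 and 0.0882, and 0.0261 and 0.0169 with the replicate block), and ENSBGRG00000017644 was not a DEG (limma adjusted p = 0.466). The groups overlapped for all 3. PLEC, with every peak below 0, had 13.6, 14.03 and 6.57 FPKM in Y6M and 27.8, 39.8 and 13.9 in Y30M, so the groups overlapped slightly (log2 fold change 1.13 ± 0.44, limma adjusted p = 0.0760). With the replicate number as a block its limma adjusted p was 0.00487. PLEC lost the call without Y6M replicate 3 (0.81), Y30M replicate 1 (1.06) or Y30M replicate 2 (0.81). NYNRIN lost it without any of 4 libraries (Y6M replicates 1 and 2, Y30M replicates 2 and 3; −0.76 to −0.62) and AKAP9 likewise (Y6M replicates 2 and 3, Y30M replicates 1 and 2; −1.31 to −0.82).

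Across the 124 genes the median shift of a gene and its log2 fold change of expression were set side by side. Both were above 0 in 33 genes and both at or below 0 in 21. Methylation was up and expression down in 47, and the reverse held in 23. Pearson's r across genes was −0.05 and Spearman's rho −0.08, against −0.05 and −0.08 over the 4539 genes with 1 peak. Genes are not replicates and the input libraries enter both measures, so these are descriptions. Of the 89 hypermethylated DMPs on tested genes, 22 lay on genes that rose and 25 on genes that fell; of the 39 hypomethylated ones, 11 and 16 did.

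Of 35 long cytoskeletal and adhesion genes listed, 5 had an identifier with a name, and all 5 were in the group: MACF1, PLEC, UTRN, MAP1A and FAT2. Of all 2136 genes with a name, 62 were in the group. Names came chiefly from genes with differential peaks, and listed genes without a name could be among the 69 unnamed members. The counts for this and the following lists therefore do not show how often listed genes were members. The 5 genes held 54 peaks with 4 hypermethylated and 6 hypomethylated DMPs. Of the 5, 2 were DEGs higher in Y30M and 1 lower, beside 27.6% and 19.0% over all genes. MAP1A and PLEC rose, PLEC at an unadjusted p only, and UTRN fell. FAT2, an atypical cadherin, had 1.39, 2.32 and 4.50 FPKM in Y6M and 1.03, 1.56 and 1.06 in Y30M, with overlap (limma adjusted p = 0.149). The median log2 fold change of the 5 was −0.24, beside 0.04 over all genes.

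Of 46 chromatin and transcription genes listed, 13 had an identifier with a name, and 8 of these 13 were in the group. These 8, KMT2C, CHD1, CHD9, NSD1, SETD2, ASH1L, ZFHX3 and ZFHX4, held 67 peaks with 9 hypermethylated and 2 hypomethylated DMPs. Of the 8, 0 were DEGs higher and 3 were DEGs lower in Y30M, beside 27.6% and 19.0% over all genes, and the median log2 fold change was −0.67, beside 0.04. Among all 13 listed genes with a name, 1 was a DEG higher (CHD4, with 5 peaks) and 5 were lower. The median of the 13 was −0.58. ZFHX4 had 0.23, 0.47 and 0.48 FPKM in Y6M and 0.87, 0.97 and 1.37 in Y30M, without overlap (0.57 ± 0.14, limma adjusted p = 0.0146), and was not a DEG because that log2 fold change lay under the 1.5-fold limit. NSD1, a histone H3 lysine 36 methyltransferase, had 23.6, 23.65 and 30.2 FPKM in Y6M and 16.1, 8.01 and 10.55 in Y30M (−1.14 ± 0.29, limma adjusted p = 0.0158), without overlap. The chromatin remodeller CHD9 (−1.21 ± 0.44) and the methyltransferase ASH1L (−0.96 ± 0.35) passed at an unadjusted p only, both with a limma adjusted p of 0.0606, which was 0.0151 and 0.0191 with the replicate block. Both lost the call without Y6M replicate 3 (−0.87 and −0.70) and without Y30M replicate 2 (−0.89 and −0.70), and CHD9 also without Y30M replicate 1. KMT2C, with 13.9, 14.8 and 17.0 against 13.0, 8.16 and 8.87 FPKM, did not pass (−0.58 ± 0.25, limma adjusted p = 0.106). ZFHX3 did not pass either (−0.76 ± 0.33, limma adjusted p = 0.09999). With the replicate block it was a DEG at an unadjusted p only (limma adjusted p = 0.0766). CHD1 and SETD2, a methyltransferase of the same mark as NSD1, overlapped between the ages.

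Of 22 genes of the m6A machinery listed, 3 had an identifier with a name, and 0 of these 3 were in the group. Of these the reader IGF2BP2 fell, IGF2BP3 rose and YTHDF2 did not pass the test.

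Markers of testis cell types moved with age beside these results. Of 9 Sertoli cell markers 3 had an identifier, SOX9, FSHR and DHH, and all 3 fell; their summed level was 108.1 to 124.7 FPKM over the Y6M yaks and 25.75 to 45.25 over the Y30M yaks. LHCGR, the 1 Leydig cell marker of 7 with an identifier, went from 34.42 to 67.26 FPKM in Y6M to 1.437 to 5.367 in Y30M. Of 2 spermatocyte markers of 9, SYCP3 rose and HORMAD1 did not pass the test. PECAM1, the 1 blood and endothelial marker of 7, fell. None of these 7 genes was at 0 in any library, and no peritubular, spermatogonial or spermatid marker listed had an identifier with a name. The part of cell composition in the expression differences was not tested.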

How the data were processed

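Testis input and m6A IP libraries of 3 Y6M and 3 Y30M yaks were used. The authors trimmed reads with Trimmomatic, aligned them with HISAT2 to LU_Bosgru_v3.0 and called peaks and differences with MeTDiff over the replicates. The deposited values were FPKM per gene and input library, and, per peak, a fold enrichment (ratio), a score for each p-value and FDR (its log10), a log2 fold change and a site score of adenosines. The read counts behind each value are unknown, so no counting interval is given. The log2 fold change was deposited in both signs. The sign was set so that positive stands for Y30M, and was checked against the peak lists of each group. log2(FPKM + 1) of 19477 genes above 0 in at least 1 library was fitted with limma 3.58.1 (trend, no block), tested on simulated data, and p-values were adjusted by Benjamini-Hochberg. The labels do not say whether the yaks with the same replicate number were related, but deviations of same-numbered libraries correlated at 0.209, 0.283 and 0.604 (other pairs −0.474 to 0.322), so a fit with the number as a block was an alternative. Members and lists were chosen with earlier results of these data known. Genes named were the 10 with the most peaks, those with opposed DMPs, and members of the lists. Genes with a name were also taken where all peaks went in the same direction. The 8 largest rises and falls among DEGs without overlap were ranked with named genes first. Unnamed genes could change more, such as ENSBGRG00000025033 (log2 fold change 4.06) and ENSBGRG00000004264 (−2.69). A few others were named after their values were seen (HIVEP2, REV3L, PCDHAC2, BSN). Peaks without a gene (267) and the Y30M list beyond chromosomes 1 and 2 were not used here. No sequences are shown, since no genome of this build was used.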

Additional observations from a re-analysis of the deposited data

How the results depend on the processing

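Of 102 values recomputed under the alternatives, 72 stayed within 1.5 times of a count or within the spread between yaks of a level, and 30 moved. Within that spread the level difference of Y6M turned above 0 with 7 or more peaks (0.0542), 5 or more (0.0697), and without Y6M replicate 1 (0.0370) or 2 (0.0475). Most of the moves followed from taking more or fewer genes or peaks. With 7 or more peaks there were 36 DEGs (18 lower), 69 genes with both signs and 5 with opposed DMPs. With 5 or more there were 128 DEGs (66 higher, 62 lower), 264 DMPs (189 hypermethylated, 75 hypomethylated), 271 genes with both signs, 19 with opposed DMPs and a level difference of 0.0851 in Y30M. Counting only peaks with an enrichment FDR of at most 0.05 left 66 genes with 25 DEGs (10 higher, 15 lower), 50 DMPs (36 and 14), 59 genes with both signs, 873 same-sign pairs, 1 gene with opposed DMPs, and level differences of 0.328 in Y6M and 0.370 in Y30M. The cause of these higher levels was not tested. The same limit on DMPs alone, added after seeing the data, left 75 DMPs and 1 opposed gene among the 131. A fold change of at least 2 left 38 DMPs (23 and 15), and a mean of at least 1 FPKM gave a level difference of −0.229 in Y30M.

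Leaving out 1 library at a time gave 48 to 59 DEGs, 21 to 30 higher and 22 to 36 lower, or 38.7 to 47.6% of the 124 genes where 42.1 to 47.2% of all genes were called, and level differences of −0.103 to 0.0475 in Y6M and −0.144 to −0.00198 in Y30M. With the replicate block there were 68 DEGs (32 higher, 36 lower), which is 54.8% of the group beside 50.9% of all genes. The block turned ZFHX3 and USF3 into DEGs lower in Y30M and KIAA2026 into a DEG higher, and changed no other call of the 36 named genes tested. All 3 passed at an unadjusted p only (limma adjusted p with the block = 0.0766, 0.0803 and 0.0774). Over the named genes 422 of 468 values kept their direction and side, 29 lost the call, 13 gained it and 4 reversed, none of them called: SETD2 at 0.0640 after rescaling to the same sum, 0.199 without Y6M replicate 3 and 0.104 without Y30M replicate 2, and ENSBGRG00000009618 at 0.0678 without Y6M replicate 3. Leaving out 1 library gave −0.316 to 0.199 for SETD2 and −0.263 to 0.0678 for ENSBGRG00000009618. An adjusted p, a fold change of at least 2, the replicate block and the limit on mean FPKM leave the log2 fold change itself unchanged. Under those settings only the call could differ, not the direction. NYNRIN, AKAP9, PLEC, ASH1L, CHD9 and CENPF also lost the call in more than 1 setting.

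The peak values have no replicate spread, 3 yaks per group limit the expression test, and an exact permutation of 3 against 3 cannot go below p = 0.1.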
